A study of Mus musculus with 38 samples.

Results

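Lyve1, Folr2, Stab1, Cd163, Ednrb and Enpep are 6 of the 19937 genes measured, each by 1 probe set, and were chosen by their log2 intensities, which were high on the arrays of dermal P4 and P5 macrophages. They are treated here as genes of perivascular-type resident macrophages, and their high values in P4 and P5 are therefore a description and are given without a test. All mice were wild-type female C57BL/6 aged 6 weeks, and every population was sorted by flow cytometry. Untreated (steady-state) mice gave blood monocytes (CD11b+ Ly6Chigh) and 6 populations of the ear dermis, all CD11b+ and CD24-negative. P1 was CD64low, Ly6Chigh, CCR2+ and MHC II-negative. P2 was CD64+, Ly6Chigh, CCR2+ and MHC II+, and P3 differed from it in being Ly6Clow. The macrophages P4 and P5 were CD64+ and negative for Ly6C and CCR2, P4 without and P5 with MHC II. Dermal dendritic cells (DC) were CD64-negative and MHC II+. Inflamed mice received 10 µl of 0.5% 2,4-dinitrofluorobenzene (DNFB), a contact sensitiser, 3 days before harvest, and gave P1, P2 and dermal DC. Migratory CD11b+ DC of the skin-draining lymph nodes came from untreated and from DNFB mice, and CD64+ Ly6C+ migratory cells of the nodes from DNFB mice. The labels name these last cells non-DC, monocyte and DC in different fields, so they are called node CD64+ cells. P4 and P5 cells after DNFB were not analysed here. Each of the 13 populations has 3 arrays from separate pools of mice, except P1 after DNFB with 2, which makes 38 arrays.

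Resident macrophages beside blood vessels take up material from tissue fluid and plasma through scavenger and endocytic receptors, and many of them bear the products of these genes. LYVE1 binds hyaluronan, a matrix polysaccharide, stabilin 1 (Stab1) takes up modified proteins for breakdown, and CD163 takes up haemoglobin bound to haptoglobin. FOLR2 is a folate receptor, EDNRB a receptor for endothelins, which are vasoactive peptides, and ENPEP the peptidase that trims angiotensin II. LYVE1 and stabilin 1 are also known from lymphatic or sinusoidal endothelium, and EDNRB from melanocytes and glia, so genes of those cells are reported beside the values.

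The RefSeq annotation of mouse build GRCm38.p6 places Enpep on chromosome 3 (129269177 to 129332749), Cd163 on 6 (124304636 to 124330529), Folr2 on 7 (101839988 to 101857190), Lyve1 on 7 (110850607 to 110862953), Stab1 on 14 (31139017 to 31168651) and Ednrb on 14 (103814615 to 103844508). Windows from 250 bases before to 50 after an annotated start were held for Cd163, Ednrb, Enpep, Folr2 and Stab1, with separate starts for Folr2, 6 windows in all. They were searched on either strand for 3 short motifs: TGCTGA (reverse complement TCAGCA), part of the MAF recognition element, GAGGAA (reverse complement TTCCTC), bound by PU.1 and other ETS factors, and CACGTG, the E-box of MiT/TFE factors. TGCTGA was present in 4 of the 6 windows and in 19.5% of all 32851 windows of this length. GAGGAA was present in 1 of the 6 and in 28.3% of all, and CACGTG in 0 of the 6 and in 7.15% of all. Matches overlapped in no window, and a match is a string of letters, not a measured binding site. The window of Enpep holds none of the 3 strings and is not shown. The windows of Stab1, Ednrb and Folr2 are shown because they hold TGCTGA, with the matches in capitals (both TGCTGA and GAGGAA in Stab1). That of Cd163, the gene whose values differ most from the other 5, is also shown and likewise holds none of the 3 strings. Each is given 5′ to 3′ on the strand of the gene: chr14:31168592-31168891 (minus), chr14:103843652-103843951 (minus), chr7:101845282-101845581 (minus) and chr6:124304401-124304700 (plus).
Stab1: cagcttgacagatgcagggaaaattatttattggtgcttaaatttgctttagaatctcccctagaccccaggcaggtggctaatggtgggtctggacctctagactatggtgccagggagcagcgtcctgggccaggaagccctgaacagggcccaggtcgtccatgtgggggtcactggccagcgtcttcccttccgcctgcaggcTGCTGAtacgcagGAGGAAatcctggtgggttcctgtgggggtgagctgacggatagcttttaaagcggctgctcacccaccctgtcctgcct
Ednrb: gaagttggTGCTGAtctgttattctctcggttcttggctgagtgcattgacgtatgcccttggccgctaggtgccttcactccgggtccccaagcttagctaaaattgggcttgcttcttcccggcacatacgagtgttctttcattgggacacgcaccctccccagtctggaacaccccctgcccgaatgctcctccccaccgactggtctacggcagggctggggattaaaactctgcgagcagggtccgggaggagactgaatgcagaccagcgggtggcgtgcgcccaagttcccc
Folr2: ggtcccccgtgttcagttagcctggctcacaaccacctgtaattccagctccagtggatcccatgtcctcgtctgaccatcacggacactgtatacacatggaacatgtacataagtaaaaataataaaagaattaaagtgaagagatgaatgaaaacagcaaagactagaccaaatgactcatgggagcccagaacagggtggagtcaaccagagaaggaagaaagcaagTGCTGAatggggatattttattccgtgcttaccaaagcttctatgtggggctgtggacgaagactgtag
Cd163: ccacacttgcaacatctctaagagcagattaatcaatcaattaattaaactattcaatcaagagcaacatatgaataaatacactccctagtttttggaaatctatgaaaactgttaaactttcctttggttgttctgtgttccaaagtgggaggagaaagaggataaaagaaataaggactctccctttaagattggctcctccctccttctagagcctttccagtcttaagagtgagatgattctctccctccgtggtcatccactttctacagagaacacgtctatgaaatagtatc
Counted in bases from the start, TGCTGA begins at -43 and GAGGAA at -30 in Stab1, and TGCTGA begins at -19 in Folr2 and at -242 in Ednrb. The other Folr2 window, which is not shown, holds it at -220, so Folr2 counts for 2 of the 4 windows, and 3 of the 5 genes with a window hold the string.

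Levels are log2 intensities per probe set, differences are log2 differences between population means with the standard error (SE) of the fit, and a fold is the antilog of a difference. A gene is said to rise or fall only at an adjusted p under 0.05 in limma, adjusted by Benjamini-Hochberg over all 19937 genes. Probe sets differ in brightness, so levels are compared between populations and never between genes. Values under 4.02, the 40th percentile of all values, are called low signal, and a change that starts from or ends in low signal has no exact size. Array medians lay between 4.39 and 4.65, replicates of a population correlated at 0.947 to 0.993 over all genes, and no array pair held identical values. RNA from 5 to 20 ng per sample was amplified before labelling. Macrophage markers (Mertk, Fcgr1, Adgre1, Cd68 and C1qa, 5 measured) were high in P4 and P5. Their mean was 9.94 to 10.4 on P4 arrays, 9.67 to 10.4 on P5 arrays and 9.63 to 9.81 in P3. P4 arrays thus lay above those of P3, whereas P5 arrays overlapped with them. The mean was 9.09 to 9.76 in P2 after DNFB and 7.68 to 7.79 in blood monocytes. The sort marker gene Ccr2 was lower in P4 (8.14, SD 0.51) and P5 (9.15, SD 0.43) than in P3 (10.7, SD 0.06), yet well above low signal in cells sorted as CCR2-negative. H2-Ab1, an MHC II gene, was at 9.63 in P4 (SD 0.29) and 11.8 in P5 (SD 0.10), in the order of the gates. Cd24a, the gene of CD24, was at 8.84, 8.93, 8.96 and 8.83 in untreated P1, P2, P3 and dermal DC, although sorted as CD24-negative. It was lower in P4 (5.59, SD 1.16) and P5 (7.09, SD 0.82). Itgam, the gene of CD11b, was at 4.62 (SD 0.11) in untreated and 4.74 (SD 0.43) in DNFB node DC, although those cells were sorted as CD11b+, and between 8.65 and 10.8 in the other 11 populations.

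**Figure D1:**
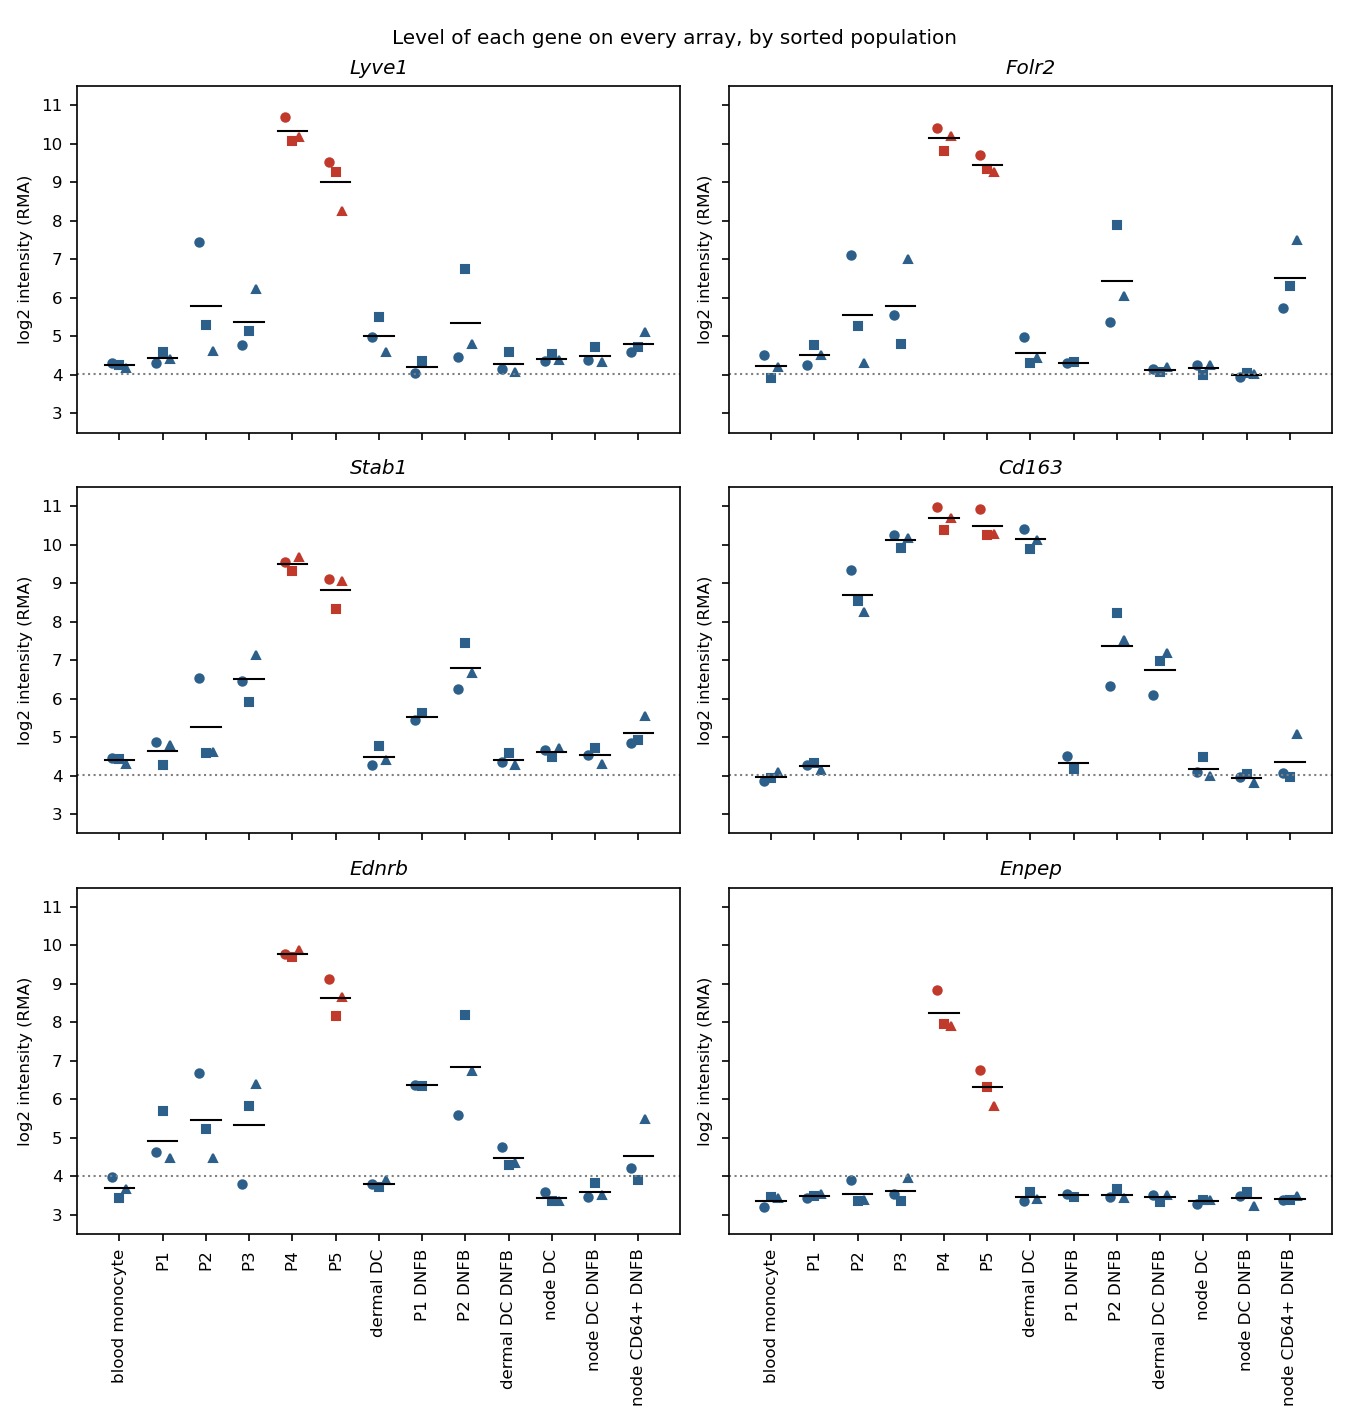
Log2 intensity of the 6 genes on each of the 38 arrays, with 1 panel per gene and 1 column per sorted population. Points are arrays (circle, square and triangle for replicates 1, 2 and 3), bars are population means, red marks P4 and P5, and the dotted line is the low-signal value of 4.02. Lyve1, Folr2, Stab1 and Enpep are higher on all P4 and P5 arrays than on any other array, Ednrb overlaps with 1 P2 array after DNFB, and Cd163 is as high on 2 arrays of P3 and dermal DC as on the lowest macrophage array.

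The 6 genes fell into 3 patterns over the 13 populations. Enpep was above low signal in the macrophages alone, Cd163 was high in most steady-state dermal cells, and Lyve1, Folr2, Stab1 and Ednrb were high in P4 and P5 with intermediate, variable levels in P2, P3 and, for Folr2, node CD64+ cells. Across the 13 population means Cd163 correlated with the other 5 genes at Pearson r between 0.59 and 0.72, and the other pairs at 0.86 to 0.97. These coefficients describe 13 points that share their arrays, the same P4 and P5 maxima chose the genes, and no p is given. Cells are bulk sorts, so a lower level cannot be told apart as fewer cells with the RNA or less RNA in each cell.

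Lyve1 read 10.70, 10.08 and 10.18 on the P4 arrays and 9.53, 9.26 and 8.25 on the P5 arrays. It read 7.45, 5.30 and 4.62 in steady-state P2, 4.77, 5.14 and 6.23 in P3, 4.99, 5.49 and 4.58 in dermal DC, and 4.45, 6.76 and 4.79 in P2 after DNFB. Every other array lay between 4.05 and 5.10. P4 and P5 were 4.29 above P3 in the mean (19.5-fold) and their arrays did not overlap with any other population. Below the macrophages, each neighbour in the order of means overlapped with the next.

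Folr2 read 10.42, 9.82 and 10.19 in P4 and 9.72, 9.34 and 9.26 in P5. Next in order were node CD64+ cells at 5.73, 6.31 and 7.50, followed by P2 after DNFB at 5.36, 7.88 and 6.05, P3 at 5.55, 4.80 and 7.01 and steady-state P2 at 7.11, 5.26 and 4.30, and these 4 populations overlapped. Dermal DC (4.98, 4.31 and 4.43), P1, blood monocytes and node DC were lower, node DC after DNFB lowest at 3.95, 4.04 and 4.02. The mean of P4 and P5 was 4.00 above that of P3.

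Stab1 read 9.55, 9.30 and 9.67 in P4 and 9.10, 8.32 and 9.06 in P5. P2 after DNFB (6.25, 7.43 and 6.67) and P3 (6.46, 5.92 and 7.13) overlapped with each other and lay above every array of dermal DC (4.27, 4.78 and 4.42). Steady-state P2 spread from 4.60 to 6.55, and P1 stood at 4.88, 4.27 and 4.78 untreated and 5.46 and 5.61 after DNFB. The macrophage mean exceeded that of P3 by 2.67.

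Cd163 read 10.96, 10.39 and 10.69 in P4, 10.91, 10.26 and 10.29 in P5, 10.42, 9.90 and 10.11 in dermal DC and 10.26, 9.92 and 10.18 in P3. These 4 populations followed each other in order with overlapping arrays, and the macrophage mean was 0.46 above P3 and 0.44 above dermal DC. Of the 32 other arrays 2 lay within the macrophage range, above its lowest array, the higher of them a dermal DC array at 10.42. Blood monocytes (3.87, 3.93 and 4.09), P1 (4.27, 4.32 and 4.15) and node DC (4.10, 4.47 and 3.98) were at or near low signal.

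Ednrb read 9.79, 9.69 and 9.87 in P4 and 9.12, 8.16 and 8.66 in P5. The highest other array, replicate 2 of P2 after DNFB at 8.19, exceeded the lowest P5 array. P1 after DNFB read 6.38 and 6.35, steady-state P1 4.63, 5.69 and 4.47, and dermal DC 3.79, 3.72 and 3.92. Enpep read 8.84, 7.97 and 7.90 in P4 and 6.77, 6.33 and 5.83 in P5, and the highest of the 32 other arrays, replicate 3 of P3, was at 3.95, under the low-signal value.

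Between P4 and P5, Enpep was the 1 gene of the 6 that passed the test, and it was higher in the MHC II-negative macrophages. Enpep fell by 1.93 from P4 to P5 (SE 0.20, 3.80-fold, limma adjusted p = 3.7e-07), with no overlap between arrays. The rule used the height of both populations, not the difference between them. Over all genes 0.201% fell and 0.291% rose between P4 and P5. Lyve1 differed by -1.31 (SE 0.51, adjusted p = 0.46), Ednrb by -1.14 (SE 0.55, adjusted p = 0.67), Folr2 by -0.70 (adjusted p = 0.9), Stab1 by -0.68 (adjusted p = 0.73) and Cd163 by -0.20 (adjusted p = 0.98) in limma. The arrays of Lyve1, Folr2, Stab1 and Ednrb did not overlap between P4 and P5 and those of Cd163 did, and the median difference of the 6 genes was -0.92 against 0.01 over all genes.

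Beside Enpep, 2 genes of the other lists fell from P4 to P5. Slc40a1, which encodes the iron exporter ferroportin, was at 6.60 in P4 (SD 0.62) and 3.81 in P5 (SD 0.28, low signal), a difference of -2.79 (SE 0.34, adjusted p = 5.9e-06). Vsig4, which encodes a complement receptor of resident macrophages, was at 5.02 in P4 (SD 0.37) and 3.11 in P5 (SD 0.06, low signal), a difference of -1.91 (SE 0.16, adjusted p = 7.4e-09). They were 1 of 15 measured genes of haem and iron handling and 1 of 27 measured genes of a list of other resident macrophage genes, in which 0 rose. Hmox1, whose enzyme breaks down haem, was at 12.5 in P4 (SD 0.03) and 12.3 in P5 (SD 0.19) and did not pass. Of 12 measured genes of the renin-angiotensin pathway, in which Enpep acts, 0 passed.

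Mast cell genes moved with this contrast. The mean of 5 mast cell markers was 5.61, 6.27 and 7.27 on P4 arrays and 4.20, 4.17 and 5.39 on P5 arrays. Mcpt4, a mast cell protease gene, was at 9.49 in P4 (SD 0.76) and 6.54 in P5 (SD 1.11), Cpa3 at 7.60 (SD 1.30) and 4.93 (SD 1.67), Cma1 at 6.11 and 4.24, and Tpsb2 at 5.59 and 4.27, while Fcer1a, the gene of the mast cell IgE receptor, was at low signal in both (3.13 and 2.96). Enpep was highest on replicate 1 of P4, the P4 array with the lowest mast cell mean, and the part of the mast cell genes in the P4 values was not tested. With P4 and P5 alone in the fit the Enpep difference had an adjusted p of 0.3 in limma.

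**Figure D2:**
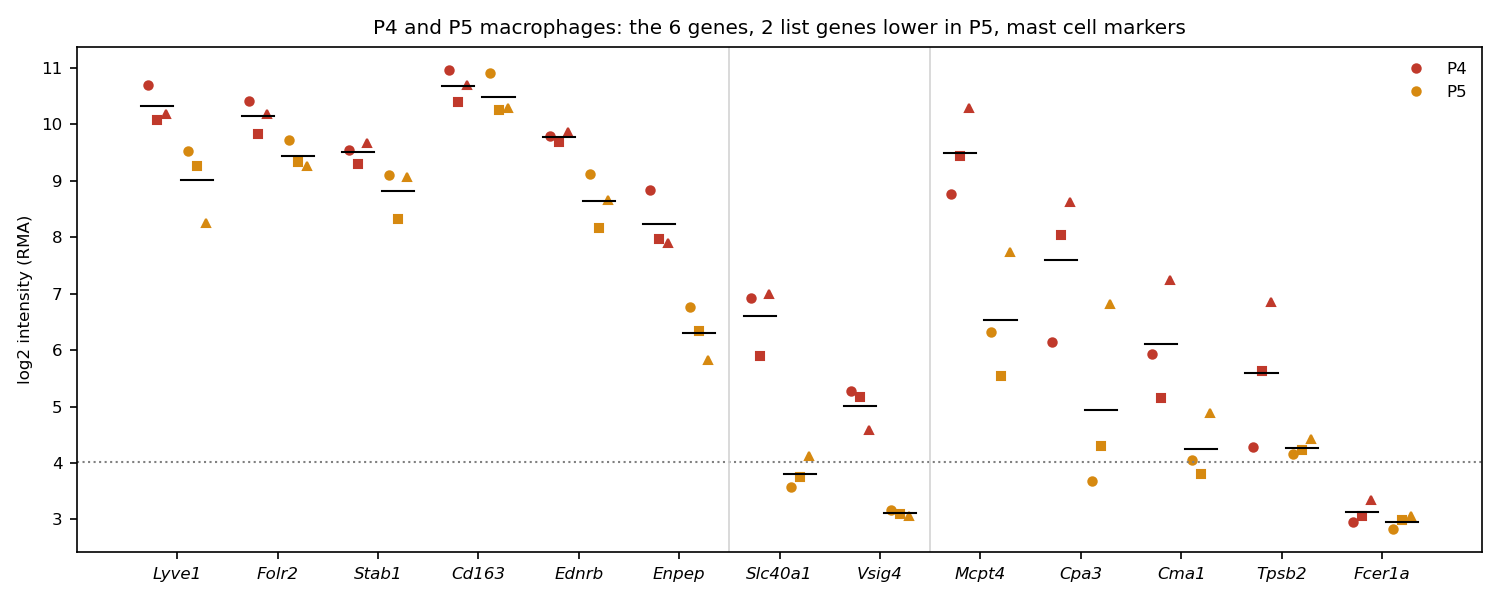
Log2 intensity on the 3 arrays of P4 (red) and of P5 (orange) for the 6 genes, for Slc40a1 and Vsig4, and for 5 mast cell markers. Points are arrays (shape is the replicate number), bars are means and the dotted line is the low-signal value of 4.02. Lyve1, Folr2, Stab1, Ednrb and Enpep separate without overlap, as do Slc40a1, Vsig4, Mcpt4 and Cma1, and of the 6 genes only Enpep passed the test. Mcpt4 stands at 9.49 in P4 against 6.54 in P5.

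Cd163 alone of the 6 genes rose from the MHC II-negative P1 to the MHC II+ P2. Its 3 arrays in P2 read 9.33, 8.52 and 8.24. P2 was 4.45 above P1 (SE 0.34, 21.9-fold, limma adjusted p = 5.1e-10) with no overlap, and P1 did not pass against blood monocytes (0.28, SE 0.34, adjusted p = 0.72). The background between P1 and P2 was 1.34% of genes rising and 0.742% falling. Lyve1, Folr2, Stab1 and Ednrb differed by 1.36, 1.04, 0.61 and 0.53 between P1 and P2 and did not pass (adjusted p = 0.23 to 0.84). From P2 to P3 Cd163 differed by 1.42 (SE 0.34, adjusted p = 0.059) and Stab1 by 1.25 (SE 0.36, adjusted p = 0.13), and none of the 6 passed. The background there was 0.176% rising and 0.196% falling. Without replicate 1 of steady-state P2, the array highest in all 6 genes, both passed in limma: Cd163 at 1.74 (adjusted p = 0.017) and Stab1 at 1.90 (adjusted p = 0.0012). These comparisons share the P2 arrays.

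Between P3 and dermal DC Stab1 fell, while the difference in Cd163 was 0.02 (SE 0.34, adjusted p = 1). From P3 to dermal DC Stab1 fell by 2.01 (SE 0.36, 4.03-fold, limma adjusted p = 0.0011) with no overlap of arrays. Between P3 and dermal DC 0.747% of genes rose and 1.05% fell, and of the 6 genes 0 rose and 1 fell, with a median of -0.79 against 0.01 over all genes. Ednrb differed by -1.54 (SE 0.55, adjusted p = 0.21) and Folr2 by -1.21 (SE 0.55, adjusted p = 0.41). Ednrb passed without replicate 1 of P3 (-2.31, limma adjusted p = 0.021). That array was the lowest of the P3 arrays for Ednrb (3.80) and for mast cell markers (3.54, against 4.56 and 5.75). It was also the lowest for keratinocyte markers (6.91, against 7.61 and 8.24), and the part of such cells in the Ednrb values was not tested. The Stab1 call was lost with P3 and DC alone in the fit (adjusted p = 0.07).

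After DNFB, Cd163 fell in dermal DC, and in lymph node DC it was at or near low signal whether or not the mice were treated. Dermal DC read 6.08, 6.97 and 7.17 after DNFB, against 10.42, 9.90 and 10.11 untreated. The difference was -3.40 (SE 0.34, 10.6-fold lower, limma adjusted p = 1.1e-07) with no overlap. In this comparison 2.11% of all genes rose and 2.06% fell, and of the 6 genes Cd163 alone passed. Lyve1 and Folr2 differed by -0.75 (adjusted p = 0.61) and -0.44 (adjusted p = 0.85), each without overlap of arrays. From untreated dermal DC to untreated node DC Cd163 fell by 5.96 (SE 0.34, 62.2-fold lower, limma adjusted p = 4.4e-14), in a comparison in which 10.1% of genes rose and 10.1% fell. None of the 6 genes changed in node DC with DNFB (Cd163 -0.24, adjusted p = 1), where 0.903% of genes rose and 0.441% fell. The DNFB and the lymph node comparison share the untreated dermal DC arrays.

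Genes of haem handling fell with Cd163 in dermal DC after DNFB. Of 15 measured genes of the list 0 rose and 4 fell, with a median of -0.78 against 0.02 over all genes, and the count stayed at 4 without any 1 of the 6 arrays. Slc48a1, a haem transporter of the endolysosome, fell by 2.31 (SE 0.24, adjusted p = 2e-07) and Hmox1 by 2.31 (SE 0.35, adjusted p = 6.5e-05). Lrp1, the receptor for haem bound to haemopexin, fell by 1.74 (SE 0.22) and Bach1, a haem-sensing repressor of Hmox1, by 1.09 (SE 0.18). In untreated node DC against dermal DC 1 of the 15 rose and 9 fell, among them Hmox1 (-4.34, SE 0.35), Lrp1 (-3.73, SE 0.22), Tfrc, the transferrin receptor gene (-3.66, SE 0.31), and Trf, the transferrin gene (-2.53, SE 0.24). The gene that rose was Spic (1.87, SE 0.63, adjusted p = 0.034), which encodes a factor known from iron-recycling macrophages. No gene of the list rose without replicate 2 or 3 of untreated dermal DC, or without replicate 2 or 3 of untreated node DC. Sorted as CD64-negative, dermal DC had Fcgr1, the gene of CD64, at 5.94 (SD 0.28) untreated and 7.98 (SD 0.28) after DNFB. The monocyte marker mean was 5.43 to 5.96 untreated and 6.88 to 7.26 after DNFB, the macrophage marker mean 7.70 to 8.05 and 7.40 to 7.81, the dendritic cell marker mean 8.01 to 8.33 and 8.76 to 9.03, and the keratinocyte marker mean 6.63 to 7.36 and 5.38 to 6.12. Their part in the fall of Cd163 was not tested.

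**Figure D3:**
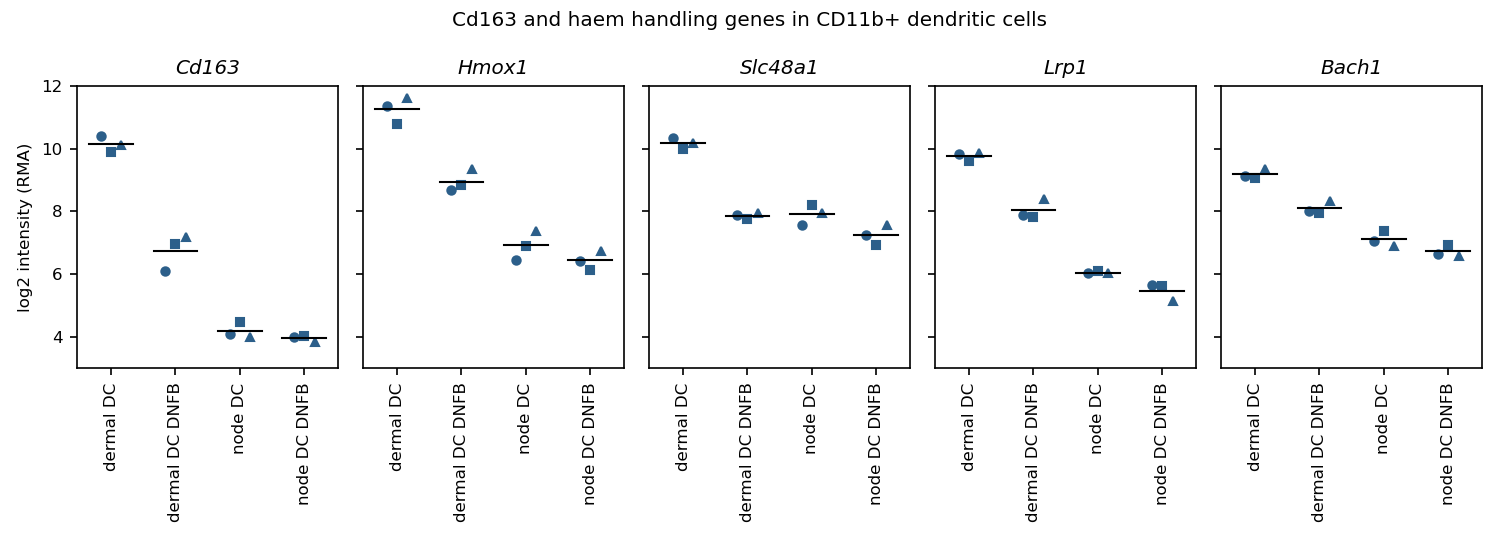
Log2 intensity of Cd163 and of the 4 haem handling genes that fell in dermal DC after DNFB. Columns are dermal and lymph node DC, sorted as CD11b+, from untreated and DNFB mice. Points are arrays (shape is the replicate number) and bars are means. Cd163 stands at 10.1 in untreated dermal DC, 6.74 after DNFB, and 4.18 and 3.94 in node DC, and Hmox1 at 11.3, 8.95, 6.91 and 6.43 in the same order.

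In P2 after DNFB, Stab1 rose and Cd163 fell, but both calls depended on single arrays. Stab1 rose by 1.53 (SE 0.36, limma adjusted p = 0.017), although its arrays overlapped (6.25 to 7.43 against 4.60 to 6.55). Cd163 fell by 1.34 (SE 0.34, limma adjusted p = 0.031), from 9.33, 8.52 and 8.24 to 6.32, 8.23 and 7.51, without overlap. In this comparison 1.02% of genes rose and 0.998% fell. The call of Stab1 was lost without replicate 2 or 3 of untreated P2 or replicate 2 of P2 after DNFB (adjusted p = 0.13, 0.13 and 0.15). That of Cd163 was lost without replicate 1 or 2 of untreated P2 or replicate 1 or 3 of P2 after DNFB (adjusted p = 0.2, 0.059, 0.22 and 0.066), and both were lost with P2 alone in the fit (0.46 and 0.47). Monocyte marker means were 8.79 to 9.40 in untreated P2 and 9.95 to 10.4 after DNFB, fibroblast marker means 7.79 to 8.03 and 6.18 to 6.81, keratinocyte marker means 7.70 to 8.49 and 6.08 to 7.90, and macrophage marker means 8.07 to 9.35 and 9.09 to 9.76. Their part in the changes of Stab1 and Cd163 was not tested. Ednrb differed by 1.38 (SE 0.55, adjusted p = 0.27), Folr2 by 0.87 (adjusted p = 0.59) and Lyve1 by -0.46 (adjusted p = 0.82). Slc48a1 fell in P2 as in dermal DC (-1.47, SE 0.24, adjusted p = 0.00053), 1 of 15 haem genes that did, while Hp, the haptoglobin gene, rose by 1.30 (SE 0.31, adjusted p = 0.019). Hp no longer passed when replicate 1 or 3 of P2, untreated or after DNFB, was left out. Hmox1 differed by 0.08 in P2, at 11.4 (SD 0.67) after DNFB and 11.3 (SD 0.30) untreated. The DNFB differences of dermal DC and P2 were compared directly: that of Cd163 differed by -2.06 (SE 0.48, adjusted p = 0.066) and that of Stab1 by -1.62 (SE 0.51, adjusted p = 0.35), neither passing, while 0.13% of genes passed as higher and 0.12% as lower. Without replicate 1 of P2 after DNFB the Cd163 value was -2.58 (adjusted p = 0.0025), and without replicate 1 of untreated P2 it was -2.38 (0.023) and that of Stab1 -2.26 (0.005). For Hmox1 the same term was -2.38 (adjusted p = 0.025). That call was lost without replicate 2 or 3 of untreated P2, replicate 3 of P2 after DNFB, replicate 1 or 3 of untreated dermal DC, or replicate 1 or 2 of dermal DC after DNFB.

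In P1, none of the 6 genes changed with DNFB or against blood monocytes. Ednrb read 6.38 and 6.35 after DNFB against 4.63, 5.69 and 4.47, a difference of 1.43 (SE 0.62, adjusted p = 0.39), and Stab1 differed by 0.89 (SE 0.40, adjusted p = 0.42), in each case without overlap of arrays. Only 2 arrays stood for P1 after DNFB, and 0.562% of genes rose and 0.0752% fell. The DNFB differences of P2 and P1 passed for none of the 6, the nearest being Cd163 (-1.43, SE 0.51, adjusted p = 0.59), where 0% of genes passed as higher and 0.0552% as lower. Against blood monocytes, for which 5.21% of genes rose in P1 and 7.43% fell, the furthest was Ednrb (1.24, SE 0.55, adjusted p = 0.16).

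In lymph nodes after DNFB, CD64+ cells held more Folr2 RNA than node DC. Folr2 was 2.51 higher than in node DC (SE 0.55, limma adjusted p = 0.0033) without overlap, from low signal in node DC (4.00, SD 0.04). The call was lost without replicate 3 of the node CD64+ cells (2.02, adjusted p = 0.065), the array highest in all 6 genes there. Between these populations 3.82% of genes rose and 1% fell, and of the 6 genes 1 rose and 0 fell. Against P2 after DNFB Folr2 differed by 0.09 (SE 0.55, adjusted p = 0.97). Lyve1, in contrast, read 4.58, 4.71 and 5.10 and did not pass against either population (0.32, adjusted p = 0.86, and -0.53, adjusted p = 0.65).

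Cd163, Stab1 and Ednrb were lower in node CD64+ cells than in P2 cells of the inflamed dermis. Cd163 read 4.06, 3.98 and 5.07 in node CD64+ cells, a difference from P2 of -2.99 (SE 0.34, 7.94-fold lower, limma adjusted p = 1.3e-07). The difference was -1.67 for Stab1 (SE 0.36, adjusted p = 0.0012) and -2.31 for Ednrb (SE 0.55, adjusted p = 0.0038), each without overlap. The Ednrb call was lost without replicate 2 of P2 (-1.63, adjusted p = 0.061) and with the 2 populations alone in the fit (0.083). In this comparison 7.26% of genes rose and 5.37% fell, and of the 6 genes 0 rose and 3 fell. Macrophage marker means overlapped (8.85 to 9.96 in node CD64+ cells and 9.09 to 9.76 in P2), whereas those of several other cell types did not. Monocyte marker means were 6.55 to 6.83 in node CD64+ cells and 9.95 to 10.4 in P2, and dendritic cell marker means 7.83 to 8.66 and 6.09 to 7.11. Keratinocyte marker means were 4.39 to 4.53 and 6.08 to 7.90 and fibroblast marker means 4.50 to 4.73 and 6.18 to 6.81. Blood endothelial means were 4.44 to 4.71 and 4.24 to 4.41, and B cell means 4.86 to 5.25 and 4.53 to 4.71. Lymphatic endothelial means were 3.50 to 3.70 and 4.35 to 4.55, with Pdpn, 1 of those markers, at 4.62 and 8.71. Their part in the 3 falls was not tested, and the 2 tissues were digested with different enzymes. The node CD64+ comparisons share the node CD64+ arrays.

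**Figure D4:**
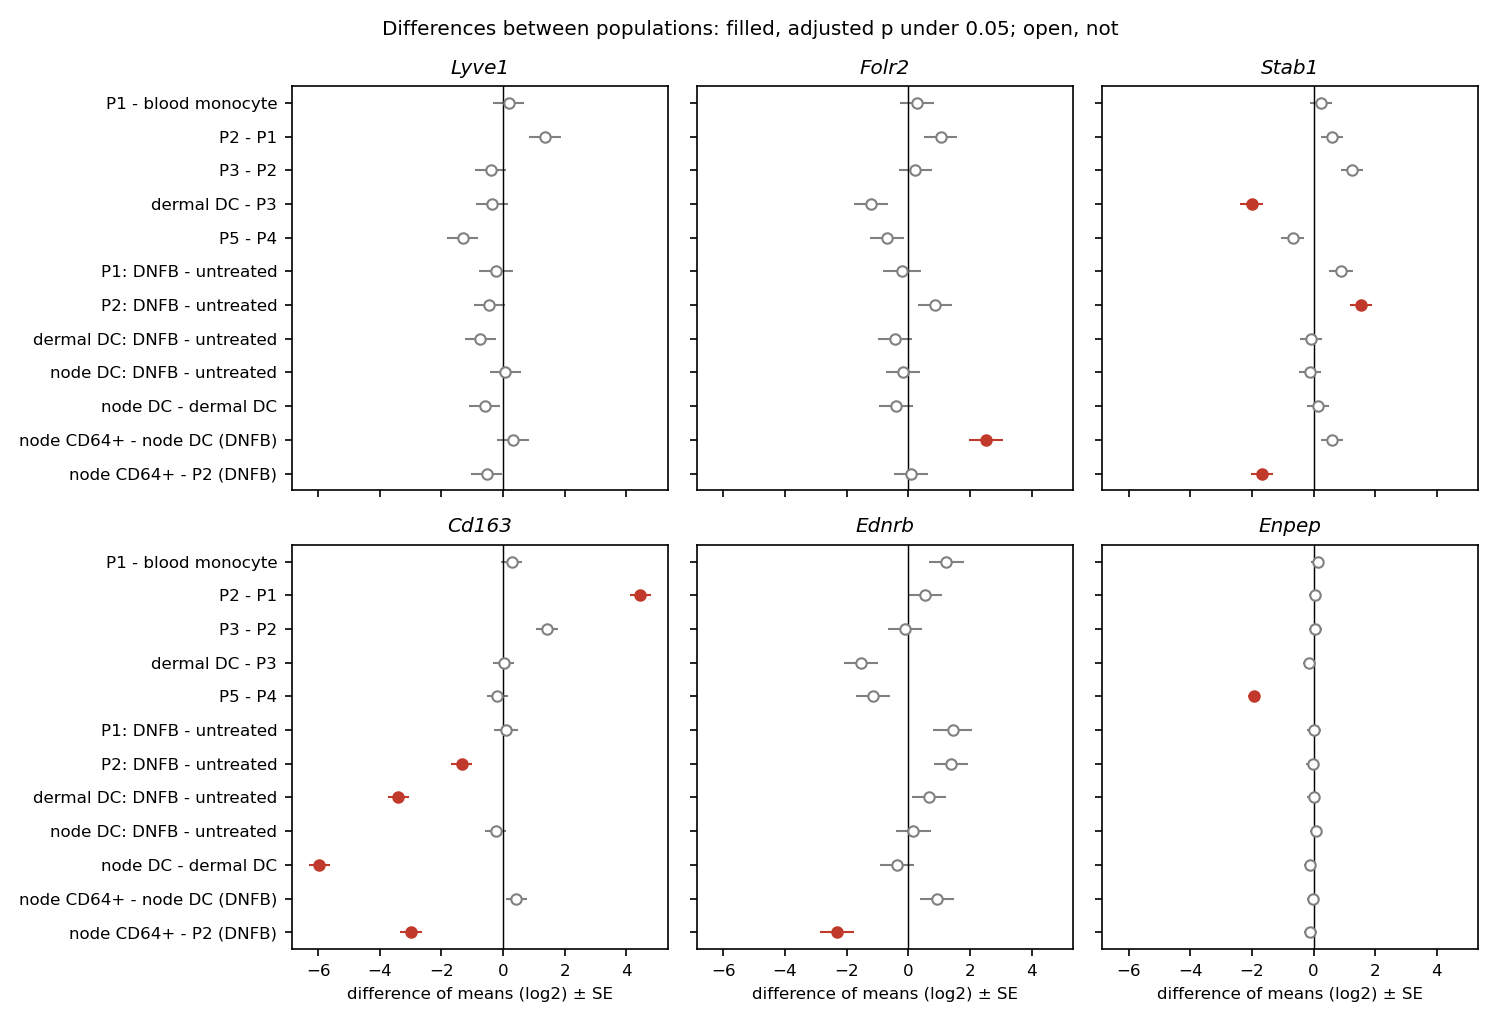
Differences of the 6 genes in 12 comparisons of populations (log2, first minus second), with the SE of the limma fit as bars. Filled red points passed an adjusted p of 0.05 over 19937 genes and open grey points did not. Cd163 ranges from 4.45 (P2 against P1) to -5.96 (node against dermal DC), and Lyve1 has no filled point.

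A list of 28 other resident and perivascular macrophage genes, of which 27 were measured, was set beside the 6. Against P3, the mean of P4 and P5 was higher in 14 of the 27 and lower in 0, with a median difference of 1.31 against -0.02 over all genes, where 1.7% rose and 1.91% fell. The list was written with earlier results of these samples known, so its direction is no independent evidence. The largest rises were those of Ccl8, a monocyte-attracting chemokine gene (5.60, SE 1.04), Cd209f, a lectin gene (4.44, SE 0.41), C4b, of the complement system (3.54, SE 0.31), and Ltc4s, which encodes leukotriene C4 synthase (2.39, SE 0.31). Ccl8 stood at 12.2 in P4 and P5 with SDs of 0.16 and 0.11, but spread widely in P3 (6.60, SD 3.15) and P2 (6.55, SD 2.33). Maf, a transcription factor gene of resident macrophages, rose by 1.80 (SE 0.31, adjusted p = 3e-04). Vsig4, another of the 14 (1.13, SE 0.14), was at low signal in P3 (2.93) as in P5 (3.11), so its value here comes from P4. The count was 10 without replicate 2 of P3 and up to 15 without 1 of the other arrays. Mast cell means were 3.54, 4.56 and 5.75 in P3, and their part in this contrast was not tested.

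Several genes of the list also differed among blood monocytes, P1 and P2. Mrc1, the mannose receptor gene, Pf4 and Fcrls were among 7 of the 27 that rose from P1 to P2 (2.54, SE 0.31, 2.02, SE 0.46, and 4.22, SE 0.41), and 3 to 8 rose when 1 array was left out, 3 without replicate 1 of P2. Pf4 (3.03, SE 0.46), Mrc1 (2.35, SE 0.31) and Dab2 (4.15, SE 0.35) were also among 7 genes higher in P1 than blood monocytes. None of the 6 genes passed there, and over all genes 5.21% rose and 7.43% fell. Without 1 array 5 to 8 of the list rose, 5 without replicate 2 of P1. Fibroblast marker means were 6.24, 9.89 and 6.89 in P1 and 4.29 to 4.43 in blood monocytes. Keratinocyte marker means were 6.89 to 7.88 and 4.27 to 4.46, and the part of such cells was not tested. In dermal DC against P3, 1 of 27 rose (Timd4, 1.88, SE 0.38) and 11 fell, the largest falls being Cbr2 (-3.06, SE 0.54), Mertk (-3.02, SE 0.49), Igf1 (-2.57, SE 0.45) and F13a1 (-2.30, SE 0.35). With DNFB, 1 rose and 8 fell in dermal DC, and 0 of 27 passed in P2. In P1 after DNFB 2 rose, Mrc1 (1.57, SE 0.35) and Dab2 (1.86, SE 0.39), and 0 without replicate 3 of untreated P1. In node DC after DNFB 2 fell, and 1 without replicate 1 or 2 of node DC after DNFB. In dermal DC Dab2 rose by 1.44 (SE 0.35), and Igf1 and Pf4 fell by 2.66 (SE 0.45) and 2.52 (SE 0.46). The call of Dab2 was lost without replicate 1 of untreated dermal DC or replicate 3 of dermal DC after DNFB. Over all genes 1.34% rose and 0.742% fell from P1 to P2, and 0.747% and 1.05% from P3 to dermal DC. With DNFB these shares were 2.11% and 2.06% in dermal DC, 1.02% and 0.998% in P2, 0.562% and 0.0752% in P1, and 0.903% and 0.441% in node DC.

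In node CD64+ cells 18 of the 27 were higher than in node DC and 0 lower, with a median of 1.96 against -0.07 over all genes and 17 to 19 rises when 1 array was left out. Pf4 (5.77, SE 0.46), Ccl8 (5.63, SE 1.20), Selenop, the gene of a selenium transport protein (5.05, SE 0.25), and Mrc1 (4.65, SE 0.31) led these rises, against Folr2 alone among the 6. Timd4, which encodes a receptor for dying cells, was 3.18 higher (SE 0.38) in node CD64+ cells than in P2, and Cd209b 2.51 higher (SE 0.55). In that comparison 6 of the 27 rose and 8 fell, and 4 fell without replicate 2 of P2. Among the falls were F13a1 by 3.25 (SE 0.35) and Cbr2 by 2.21 (SE 0.54). Over all genes 7.26% rose and 5.37% fell there, against 3.82% and 1% between node CD64+ cells and node DC. Spic was 3.64 higher (SE 0.63, adjusted p = 9.2e-05) in node CD64+ cells than in P2. It was the 1 of 15 measured haem genes that rose there, while 6 fell, with a median of -0.17 against -0.02 over all genes. Without 1 array 4 to 7 of them fell.

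**Figure D5:**
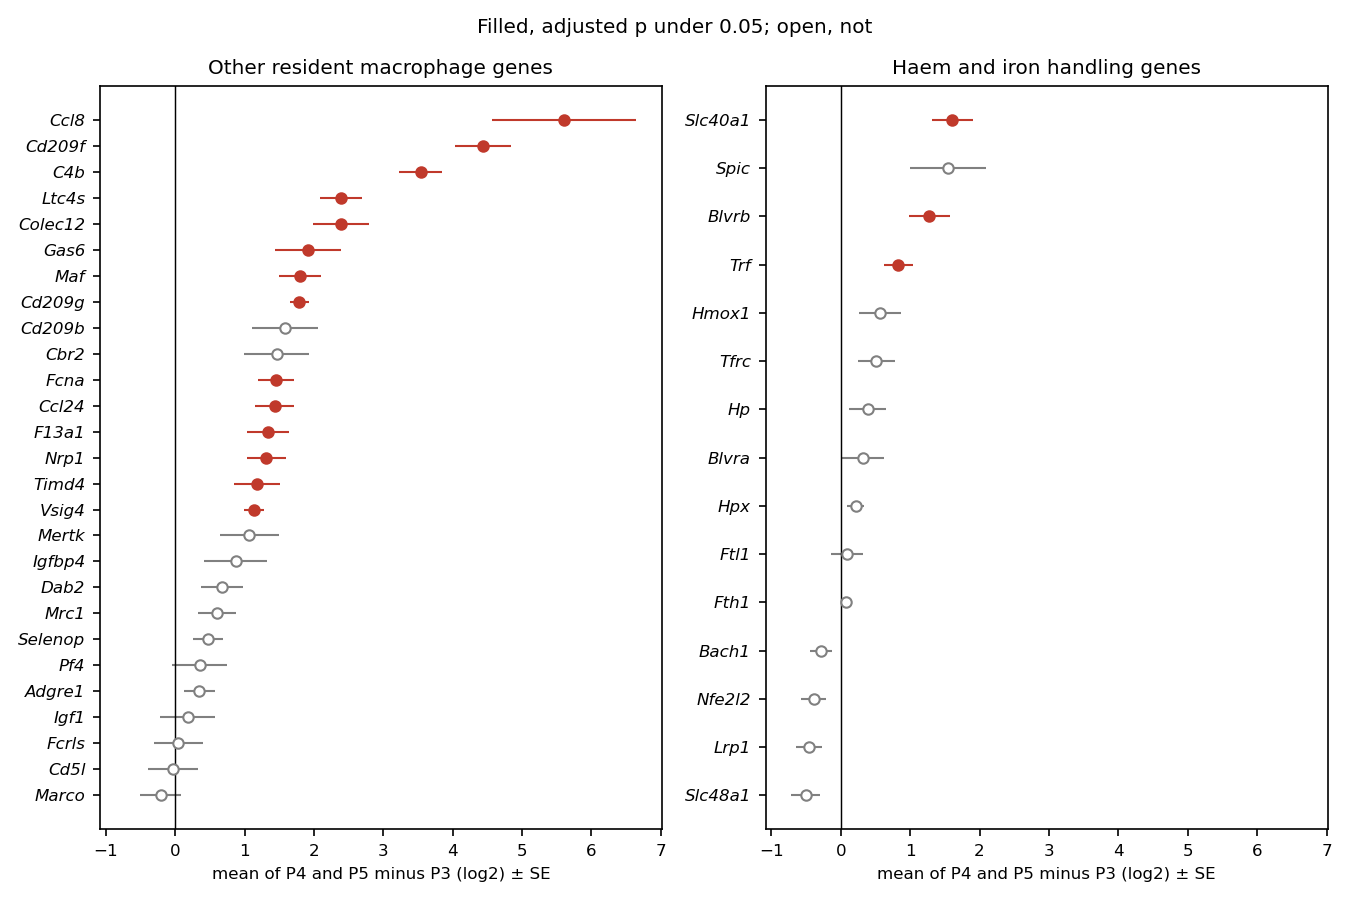
Mean of P4 and P5 minus P3 (log2) with its SE for 27 other resident macrophage genes and 15 genes of haem and iron handling. Filled red points passed an adjusted p of 0.05 in limma over 19937 genes and open grey points did not. On the left 14 genes passed, led by Ccl8 at 5.60 and Cd209f at 4.44, and on the right Slc40a1, Blvrb and Trf passed.

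Ligands and pathway partners of the 6 genes were compared between P3 and the macrophages, where 1.7% of all genes rose and 1.91% fell. Of the haem list 3 of 15 rose and 0 fell, with a median of 0.32 against -0.02: Slc40a1 (1.61, SE 0.30), Blvrb, a biliverdin reductase gene (1.28, SE 0.30), and Trf (0.83, SE 0.21), 1 without replicate 2 of P3. Slc40a1 was at low signal in P3 as in P5, so its value here comes from P4. Among 13 measured genes of hyaluronan and other ligands of LYVE1 and stabilin 1, 0 passed, which became 2 without replicate 3 of P5. Of 13 measured folate genes 1 rose, Slc46a1, a folate transporter gene (1.13, SE 0.24, adjusted p = 0.0035), and this count was 0 without replicate 2 of P3 and 2 without replicate 1 of P3 or replicate 2 of P4. Of 12 measured renin-angiotensin genes 2 rose, Atp6ap2, the prorenin receptor gene (0.91, SE 0.19), and Ctsa (0.61, SE 0.13), 1 without replicate 2 of P3. Of 8 measured endothelin genes 0 passed.

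Edn1, the gene of the endothelin 1 ligand of EDNRB, passed neither between P4 and P5 (0.96, SE 0.43, adjusted p = 0.62) nor between P3 and the macrophages (-0.87, SE 0.38, adjusted p = 0.29). It was at 4.60 (SD 0.43) in P1, 6.89 (SD 0.64) in P2, 6.93 (SD 0.44) in dermal DC and 6.42 (SD 0.74) in P3, and at 5.07 in P4 (SD 0.12) and 6.03 in P5 (SD 0.58). It rose by 2.29 from P1 to P2 (SE 0.43, adjusted p = 0.0022). With DNFB it fell by 1.81 in P2 (SE 0.43, adjusted p = 0.019, arrays overlapping) and by 1.51 in dermal DC (SE 0.43, adjusted p = 0.043). Keratinocyte marker means were 6.89 to 7.88 in untreated P1, 7.70 to 8.49 in untreated P2 and 6.08 to 7.90 in P2 after DNFB. In dermal DC they were 6.63 to 7.36 untreated and 5.38 to 6.12 after DNFB, and their part in the Edn1 values was not tested. Ace, which encodes the enzyme that makes angiotensin II, fell by 2.82 from P1 to P2 (SE 0.34, adjusted p = 2.6e-06), and Anpep, of a further angiotensin-trimming peptidase, rose by 2.10 (SE 0.55, adjusted p = 0.037), while Enpep remained at low signal in both.

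Variation among replicates ran through several of the 6 genes at once. Replicate 1 of steady-state P2, replicate 2 of P2 after DNFB, replicate 3 of node CD64+ cells, replicate 1 of P5 and replicate 2 of node DC after DNFB, in which the 6 genes were at or near low signal, were each the highest of their population in 6 of 6 genes, and replicate 3 of P3 in 5 of 6. On replicate 1 of P2 Lyve1, Folr2, Stab1 and Ednrb read 7.45, 7.11, 6.55 and 6.69, against 4.30 to 5.30 on its other 2 arrays. The macrophage marker mean was 9.35 on that array and 8.47 and 8.07 on the others, and the mean of the 27 other resident genes 7.62 against 6.75 and 6.40. On replicate 2 of P2 after DNFB these means were 9.76 (9.09 and 9.52 on the others) and 7.52 (6.65 and 6.89), and on replicate 3 of node CD64+ cells 9.96 (8.99 and 8.85) and 7.77 (6.49 and 6.46). In P3 the macrophage marker mean was 9.71 on replicate 3 and 9.81 and 9.63 on the others. The mean of the 27 other resident genes was highest on replicate 3 of P3 (7.91, against 7.44 and 7.34). Whether these arrays held cells of the P4 or P5 type was not tested.

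Marker means of endothelial, mural, melanocyte and Schwann cells, which are known for LYVE1, stabilin 1, EDNRB or ENPEP, lay between 4.02 and 4.74 on the macrophage arrays. Of the lymphatic endothelial markers, Prox1, Flt4, Mmrn1 and Reln were at low signal in P4 (3.21, 3.16, 3.09 and 3.48) and P5 (3.16, 3.34, 2.96 and 3.65), and Pdpn, which macrophages also bear, was at 7.54 and 8.97. The mean of 11 blood endothelial markers was 4.04 to 4.27 in P4 and 4.14 to 4.33 in P5, with Cdh5 at 5.35 in P4 (SD 0.95) and 4.14 in P5 (SD 0.14). The mean of 9 mural cell markers was 4.42 to 4.56 in P4 and 4.36 to 4.74 in P5, and that of 6 melanocyte and Schwann cell markers 4.02 to 4.22 and 4.09 to 4.44. In steady-state P1 the blood endothelial, mural, and melanocyte and Schwann cell means were 4.31 to 4.57, 4.70 to 5.92 and 4.12 to 4.35. The mean of the 5 measured lymphatic endothelial markers was 4.02 to 4.19 in P4, 4.31 to 4.48 in P5 and 3.82 to 4.42 in P1. The part of such cells in the values of the 6 genes was not tested. Keratinocyte means were 7.08 to 7.88 in P4 and 7.08 to 8.40 in P5, and 6.89 to 8.49 in P1 and P2. Fibroblast means were 5.83 to 6.55 in P4 and P5, 6.24 to 9.89 in steady-state P1 and 7.79 to 8.03 in steady-state P2.

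Genes with the most similar course over the 13 population means were ranked among 3596 genes by Pearson r, as a description over 13 points that include the P4 and P5 values by which the 6 genes were chosen. Nearest to the mean course of the 6 genes were Tmod1 (r 0.98), Reps2 (0.98), Tnfrsf17 (0.97), Slc6a8 (0.97), Chp2 (0.97), Pdgfc (0.97), Etv1 (0.97) and Itsn1 (0.96). Tmod1, which encodes a cap of actin filaments, was at 9.02 in P4, 8.22 in P5, 5.80 in P3 and 5.18 in dermal DC. Chp2 stood at 9.43, 8.79, 5.90 and 4.73 in the same order, and Pdgfc, the gene of a platelet-derived growth factor, at 7.84, 6.87, 4.42 and 3.91. Lyve1 was nearest to Tmod1 (r 0.99), Coro2b (0.98) and Pdgfc (0.98), Folr2 to Reps2 (0.99), Cd28 (0.99) and Hpgds (0.98), and Stab1 to Prune2 (0.97), Wwp1 (0.97) and Slc6a8 (0.96). Ednrb was nearest to Akr1b8 (0.98), Tcim (0.94) and Slc6a8 (0.94), and Enpep to A4galt (0.99), Tslp (0.99) and Gprc5b (0.99). Tslp, the gene of a cytokine of allergic skin inflammation, was at 6.69 in P4 and 5.80 in P5 and at low signal in P3 (3.02) and dermal DC (2.86). Cd163 had a separate set, Sult1a1 (0.96), Tfrc (0.96) and Pi4k2a (0.95), and Tfrc, through which cells take up iron, stood at 8.46 in P4 and 7.72 in P3.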

How the data were processed

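The authors deposited log2 values per probe set of Affymetrix Gene 1.0 ST arrays, made with RMA in affy per the submitters' processing notes, which give no versions. RNA was amplified before labelling, and what this does to scarce RNAs was not measured. Of 34760 probe sets, 21640 have 1 gene symbol, 1321 several and 11799 none in the platform annotation, and those with several or none were left out. For 954 genes with several probe sets the one with the highest mean over all arrays was used, which left 19937 genes. No further normalization was applied.

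The 13 populations were fitted together with limma 3.58.1 in R 4.3.3, with eBayes and Benjamini-Hochberg adjustment over all 19937 genes at 0.05, and the script was tested on simulated data. With 3 arrays against 3 an exact permutation test cannot go below 0.10, so p-values rest on the spread pooled over all populations. Arrays carry no read depth, and their number limits the precision. Genes are named if they are 1 of the 6, are among up to 4 genes of a list with the largest difference of those that passed, are markers of a sort or another cell type, or are the 3 nearest to a gene (8 nearest to the mean course) by Pearson r. Outside this rule, Maf and Vsig4 in P4 and P5 against P3, Dab2 and Timd4 in dermal DC, and Spic in node DC were named after their values were seen. The same holds for Hmox1 and Edn1 where they did not pass. The 6 genes, the lists and the tests were chosen with earlier results of these data known. Same-numbered replicates did not vary together in every pair of any comparison, so the numbers were not used as pairs. The labels state 3 chip batches without saying which arrays belong to which, so no batch was fitted. Alternatives were a replicate block, a random block, quantile normalization, centred medians, low values left out, the mean of all probe sets, robust variances, array weights, a fold minimum, only the compared populations, and each array left out. Promoter windows are from RefSeq for GRCm38.p6, and Lyve1 has no entry in them.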

Additional observations from a re-analysis of the deposited data

How the results depend on the processing

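Among 84 member differences 11 passed, and 1404 values were recomputed under alternatives. Of these 1315 kept direction and call, 15 lost a call, 13 gained one and 61 turned sign, 0 of them among the differences that passed and none with a main value above 0.61. Turned signs were, with a replicate block, Enpep in P1 after DNFB (-0.020), with quantile normalization Enpep in dermal DC after DNFB (-0.020) and in node CD64+ cells against node DC (0.056), and with centred medians the same 2 (-0.036 and 0.01) and Enpep in the DNFB term of dermal DC minus P2 (-0.023). With array weights they were Enpep in P2 against P1 (-1e-04) and P2 after DNFB (0.019), Ednrb in P3 against P2 (0.086) and Folr2 in node CD64+ cells against P2 (-0.048). The replicate block changed no call among the 6 genes. Without 1 array the differences that turned sign ranged as follows: in P2 against P1 Stab1 -0.038 to 0.94, Ednrb -0.084 to 1.03, Enpep -0.12 to 0.15, in P3 against P2 Lyve1 -0.995 to 0.42, Folr2 -0.40 to 1.01, Ednrb -0.65 to 0.66, Enpep -0.10 to 0.24, in dermal DC against P3 Lyve1 -0.66 to 0.063, Cd163 -0.12 to 0.14, Enpep -0.28 to 0.0092, in P1 after DNFB Cd163 -0.087 to 0.26, Enpep -0.035 to 0.053, in P2 after DNFB Lyve1 -1.17 to 0.38, Enpep -0.13 to 0.14, in dermal DC after DNFB Stab1 -0.19 to 0.060, Enpep -0.046 to 0.075, in node DC after DNFB Lyve1 -0.059 to 0.13, Stab1 -0.20 to 0.011, in node CD64+ cells against node DC Enpep -0.12 to 0.057, in node CD64+ cells against P2 Lyve1 -0.97 to 0.18, Folr2 -0.45 to 0.81, in the DNFB term of P2 minus P1 Lyve1 -0.94 to 0.61, Ednrb -0.73 to 0.57, Enpep -0.14 to 0.13, in the DNFB term of dermal DC minus P2 Lyve1 -1.12 to 0.42, Enpep -0.14 to 0.14. Counts of the 6 genes that passed became 1 in P3 against P2 with quantile normalization or with low values left out, and 2 with array weights. For the DNFB term of dermal DC minus P2 the count became 1 with low values left out and 2 with array weights, and in P2 after DNFB 1 with array weights. With only the compared populations fitted it was 0 in dermal DC against P3, in P5 against P4 and in P2 after DNFB. Array weights gave 124 genes in P3 against P2 (74 in the main analysis), 1373 in dermal DC after DNFB (830), 765 in node DC after DNFB (268), 3259 in node CD64+ cells against node DC (961) and 83 for the DNFB term of dermal DC minus P2 (50). A minimum of 2-fold gave 1426 in P1 against blood (2520), 81, 263, 490 and 166 in P1, P2, dermal DC and node DC after DNFB (127, 402, 830 and 268), 2331 in node against dermal DC (4040), 1551 in node CD64+ cells against P2 (2517) and 376 in P4 and P5 against P3 (720). With only the compared populations the counts were 1343 in P1 against blood, 62 in P2 against P1 (416), 19 in P3 against P2, 101 in dermal DC against P3 (358), 19 in P5 against P4 (98), 1 and 80 in P1 and P2 after DNFB, 1 and 22 for the DNFB terms of P2 minus P1 (11) and dermal DC minus P2, and 352 in P4 and P5 against P3. Without 1 array the counts were 56 to 167 genes in P3 against P2, 31 to 201 in P1 after DNFB, 241 to 436 in P2 after DNFB, 506 to 660 in dermal DC after DNFB, 162 to 208 in node DC after DNFB, 534 to 1032 in node CD64+ cells against node DC, 4 to 67 in the DNFB term of P2 minus P1, 24 to 72 in the DNFB term of dermal DC minus P2, 454 to 692 in P4 and P5 against P3. For the 6 genes they were 0 to 2 of the 6 genes in P3 against P2, 1 to 2 in dermal DC against P3, 0 to 1 in P2 after DNFB, 0 to 1 in node CD64+ cells against node DC, 0 to 2 in the DNFB term of dermal DC minus P2. The cause was not tested. The counts of the resident and haem lists without 1 array were added after seeing the data. The unstated chip batches, the small number of arrays and low signal limit every value.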
